A study of Mus musculus with 28 samples.

Results

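The transcripts of 37 genes of DNA crosslink, excision and recombination repair were followed in AB1-HA tumors treated with chemotherapy, immune checkpoint blockade (ICB) or both. The genes were chosen by symbol, as members of the Fanconi anemia, homologous recombination, checkpoint kinase, nucleotide excision, translesion, mismatch and base excision pathways. That rule uses no measured value, but it was set with earlier results of these data known. All 37 were found among the 55341 gene names of the deposited matrices, and all 37 passed the filter on low counts. AB1-HA is a BALB/c mesothelioma cell line that carries the influenza hemagglutinin as a tumor antigen. It was grown under the skin of female BALB/c mice aged 8 to 10 weeks, so the tumors came from 1 implanted line rather than from the pleura. Treatment was started when tumors reached 20 to 25 mm2, and bulk RNA was sequenced 7 days later from 28 tumors, 1 per mouse. Vehicle (PBS) was given to 4 mice. ICB was given to 5 mice with anti-CTLA-4 injected once and anti-PD-L1 3 times, at 100 µg per injection. 5-fluorouracil (5-FU) at 75 mg/kg was given to 5 mice, and cisplatin at 6 mg/kg to 4 mice. Both 5-FU+ICB and cisplatin+ICB had 5 mice. No animal without a tumor and no earlier time point was analysed here.

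Cisplatin forms crosslinks within and between the strands of DNA, and those between strands are unhooked and bypassed by the Fanconi anemia pathway. In that pathway a core complex of proteins attaches ubiquitin to FANCD2 and FANCI, nucleases such as ERCC1-ERCC4 cut beside the lesion, translesion polymerases copy past it, and homologous recombination rejoins the broken strand with BRCA1, BRCA2 and their partners. Bulky lesions on a single strand are cut out by nucleotide excision repair, in which XPC and DDB2 find the damage and XPA verifies it. 5-FU inhibits thymidylate synthase, so that uracil enters DNA, where uracil-DNA glycosylase (UNG) and mismatch repair act on it. Many genes of recombination and of the Fanconi pathway are transcribed mainly in dividing cells, and Mki67, which encodes the proliferation antigen Ki-67, was used as a reference for this. In bulk tumors, fewer cells of a type and less RNA per cell cannot be told apart.

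Each library held 23541733 to 33950805 counts, so that 3 counts amounted to 0.0884 to 0.127 CPM (counts scaled to library size), and every member lay above that in every tumor. The lowest value of any member was 2.43 CPM, for Ddb2. The mesothelial label was checked on 6 markers. Msln, which encodes mesothelin, stood at 45 CPM or more in 26 of the tumors, at 34.4 CPM in 5-FU+ICB tumor 1 and at 0.50 CPM in 5-FU+ICB tumor 5, whereas Upk3b did not exceed 0.0671 CPM and Wt1 did not exceed 2.79 CPM in any tumor. The summed mesothelial markers ranged from 273 to 362 CPM with PBS, 54.6 to 218 with ICB, 46.8 to 178 with 5-FU, 37.8 to 169 with 5-FU+ICB, 216 to 309 with cisplatin and 133 to 665 with cisplatin+ICB. That sum is nearly all Msln except in 5-FU+ICB tumor 5, and Msln itself was called lower only after 5-FU+ICB (log2 fold change -2.28, adjusted p = 0.0238), while Wt1 was called higher after ICB, 5-FU, 5-FU+ICB and cisplatin+ICB, at levels of 2.79 CPM or less, and Krt19 higher after 5-FU+ICB. The leukocyte gene Ptprc ranged from 75.0 to 105 CPM with PBS, 245 to 443 with ICB, 97.7 to 331 with 5-FU, 105 to 722.5 with 5-FU+ICB, 77.3 to 155 with cisplatin and 118 to 361 with cisplatin+ICB. Of 5 T cell markers, edgeR called 5 higher than with PBS after ICB, 4 after 5-FU, 5 after 5-FU+ICB and 4 after cisplatin+ICB, and of 5 macrophage markers 4, 1, 2 and 2. In the same order, 2, 0, 3 and 1 of 4 dendritic cell markers were called higher, and 1, 1, 3 and 0 of 3 endothelial markers. For 3 neutrophil markers tested the counts were 1, 0, 0 and 3, for 3 B cell markers 0, 0, 2 and 0, and for 2 NK cell markers 0, 1, 1 and 0. Red cell markers summed to 564.5 CPM in cisplatin+ICB tumor 1 and to 173.4 CPM or less elsewhere. Of 4 fibroblast markers, 0 were called after ICB, 3 higher after 5-FU, 2 higher after 5-FU+ICB and 0 after cisplatin+ICB, and their sum ranged from 641 to 2111 CPM with PBS, 2314 to 4445 with 5-FU and 2353 to 3574 with 5-FU+ICB. Skeletal muscle markers, of which 0 of 5 were called, summed to 101 to 167 CPM with PBS, 1.61 to 3157 with ICB, 7.91 to 1307 with 5-FU and 2.36 to 4357 with 5-FU+ICB. The mitochondrial share of counts was 1.53% to 2.37% with PBS, 2.69% to 4.82% with ICB, 2.72% to 6.80% with 5-FU, 2.33% to 16.1% with 5-FU+ICB, 1.72% to 2.76% with cisplatin and 1.03% to 3.99% with cisplatin+ICB. The highest share, the highest muscle sum and 589.5 CPM of summed B cell markers (72.9 CPM or less elsewhere) all belonged to 5-FU+ICB tumor 5, without which 9 members, and 36.8% of all genes, were called in 5-FU+ICB against PBS. Keratinocyte markers summed to 419.6 CPM in ICB tumor 2 and to 19.7 CPM or less elsewhere, and without that tumor 7 members, and 30.5% of all genes, were called in ICB against PBS. The part of these cell proportions in the results on the members was not tested. Another 4 libraries stood apart in a different way. An index of long against short transcripts (the median log2 CPM, centered gene by gene over the tumors, of 613 genes with a longest transcript of 8000 bases or more and a mean log2 CPM over 3, minus that of 1583 such genes of 1000 to 2000 bases, members and proliferation genes left out) was -0.97 in PBS tumor 1, -1.63 in PBS tumor 2, -0.98 in cisplatin tumor 4 and -2.94 in cisplatin+ICB tumor 1. The other 24 tumors had indices from -0.37 to 0.58. Since PBS tumors 1 and 2 are among the controls, the calls of members against PBS are given with and without these 4 tumors. For ICB, 5-FU and 5-FU+ICB, leaving them out removes PBS tumors 1 and 2 only and keeps 2 PBS tumors as controls. Whether a call was lost there through the smaller control group or otherwise was not tested.

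The members were compared first between ICB and PBS, which asks how checkpoint blockade alone altered the repair transcripts. A gene was called where edgeR's Benjamini-Hochberg adjusted p was under 0.05 and the log2 fold change exceeded 0.5 in size. After ICB, 11 of the 37 members fell and 1 rose, while 18.8% of all 17916 genes tested were called lower and 19.0% higher. The count of called members ranged from 7 (without ICB tumor 2, among 30.5% of all genes) to 16 with 1 tumor left out. It was 1, among 11.6% of all genes, without the 4 tumors low in long transcripts. The log2 fold change was below 0 for 30 members, and its median was -0.47 against -0.03 over all genes tested. The groups did not overlap for 11 members lower with ICB (21.6% of all genes) and for 1 member higher (15.8% of all genes). By role, 2 of 6 genes of the Fanconi core complex fell and 1 rose, 1 of 2 genes of the FANCD2-FANCI pair fell, and so did 3 of 10 recombination genes, 2 of 4 checkpoint kinases, 1 of 3 translesion genes, 1 of 2 mismatch repair genes, 1 of 2 genes of base excision and strand break sensing, and 0 of 8 nucleotide excision genes. Within that last group 2 genes had an unadjusted p under 0.05, and DESeq2 called 0 of the 8.

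After 5-FU, 7 members fell and 0 rose, against 13.0% and 9.98% of all genes. With 1 tumor left out, 3 (without PBS tumor 1, among 10.5% of all genes) to 9 were called. Without the 4 tumors low in long transcripts, 0 were called (0.370% of all genes). The median log2 fold change of the members was -0.29, against -0.01 over all genes, and 31 members were below 0. The groups did not overlap for 13 members, all lower with 5-FU, where 17.8% of all genes were separated in that direction. After 5-FU+ICB, 12 members fell and 0 rose, against 18.7% and 21.9% of all genes. With 1 tumor left out, 8 to 20 (without 5-FU+ICB tumor 2, among 48.8% of all genes) were called, and without these 4 tumors 2 (9.45% of all genes). The median was -0.41, against -0.04 over all genes, 32 members were below 0, and 9 members were lower without overlap (14.7% of all genes). These comparisons share the PBS tumors, so they are not independent of each other. A total of 17 members were called in at least 1 of the 3 comparisons, of which Fance, Fancl, Chek2 and Pms2 in all 3, another 6 in 2 and 7 in 1, and 20 members were called in none. Of all 17916 genes, 51.6% were called in at least 1 of the 3 and 15.7% in all 3, against 45.9% and 10.8% of the members.

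**Figure D1:**
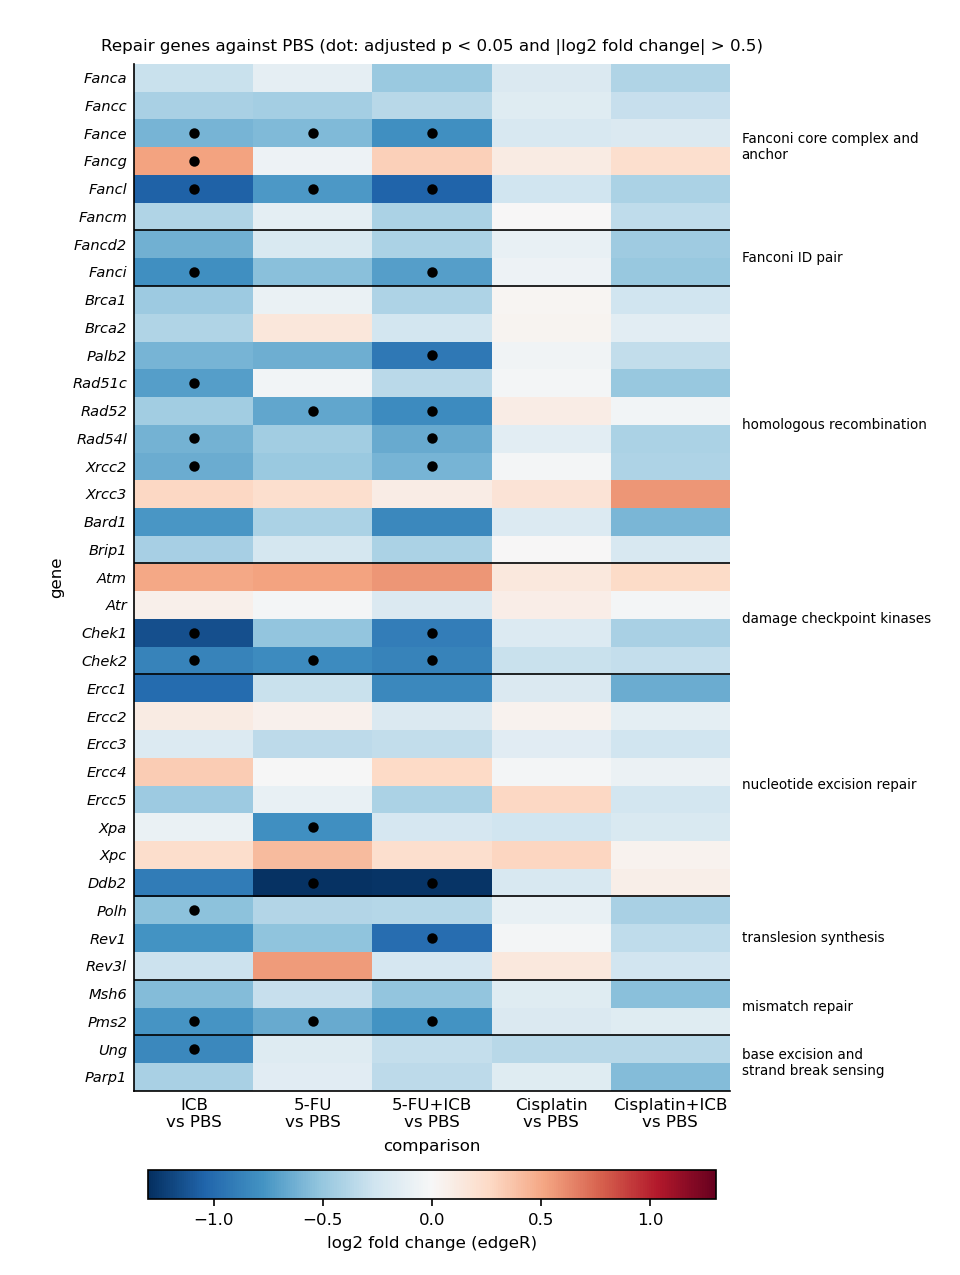
Log2 fold change against PBS (color, edgeR, blue lower and red higher than PBS, scale limited to 1.3 in size) of each of the 37 members (rows of the map, grouped by role) after ICB, 5-FU, 5-FU+ICB, cisplatin and cisplatin+ICB (x axis), with a dot where the member was called. Most cells are blue in the first 3 comparisons, where 12, 7 and 12 members carry a dot (1, 0 and 2 were called without the 4 tumors low in long transcripts), and 0 members carry one in either cisplatin comparison.

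In the Fanconi core complex, Fancl (chr11:26386135-26471876, GRCm38) encodes the ubiquitin ligase subunit. It measured 40.8, 45.8, 34.7 and 34 CPM in the PBS tumors, 20.7, 14.6, 17.3, 21.4 and 19.2 CPM after ICB, 23.3, 27.8, 19.3, 25.1 and 20.4 CPM after 5-FU, and 14.6, 25.3, 20.2, 14.6 and 19.4 CPM after 5-FU+ICB. Every tumor of these 3 treated groups lay below every PBS tumor. The log2 fold change was -1.05 ± 0.17 (SE, adjusted p = 0.000457, edgeR) for ICB, -0.75 ± 0.17 (adjusted p = 0.00812) for 5-FU and -1.04 ± 0.17 (adjusted p = 0.000629) for 5-FU+ICB. Fancl was the member with the smallest adjusted p after ICB and after 5-FU+ICB, and all 3 calls held whichever 1 tumor was left out. Without the 4 tumors low in long transcripts, the values were -0.80 (adjusted p = 0.0216), -0.50 (adjusted p = 0.255) and -0.79 (adjusted p = 0.0293). Exons of Vrk2 on the opposite strand cover 13.7% of the exon bases of Fancl, and how strand was handled in the counting is not given in the sources used here.

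Fance (chr17:28313519-28326572) encodes the core subunit that links the complex to FANCD2. It measured 30.1, 27.9, 26.5 and 26.1 CPM with PBS, 18.4, 16.7, 15.5, 19.9 and 19.0 CPM with ICB, 19.6, 21.1, 16.6, 20.0 and 15.5 CPM with 5-FU, and 13.6, 21.0, 17.6, 14.8 and 11.9 CPM with 5-FU+ICB. The PBS tumors again lay above all tumors of the 3 treated groups. Fance fell by 0.61 ± 0.15 on the log2 scale after ICB (adjusted p = 0.00431), by 0.57 ± 0.15 after 5-FU (adjusted p = 0.0129) and by 0.80 ± 0.15 after 5-FU+ICB (adjusted p = 0.00108). Without the tumors low in long transcripts the 5-FU+ICB call held (log2 fold change -0.66, adjusted p = 0.0367), whereas ICB gave -0.47 (adjusted p = 0.0855) and 5-FU -0.43 (adjusted p = 0.277). The 5-FU call of Fance was also lost without PBS tumor 1. Fancg (chr4:43002343-43010506), another core subunit, was the single member called higher and is given by tumor for that reason, after its values were seen. It measured 7.71, 6.37, 6.76 and 8.04 CPM with PBS and 10.9, 10.4, 10.7, 9.41 and 9.49 CPM with ICB, a log2 fold change of 0.52 ± 0.19 (adjusted p = 0.0401). Its groups did not overlap, but the call was lost in 7 of the 9 fits that left out 1 tumor, where the log2 fold change ranged from 0.45 to 0.57, and without the 4 tumors low in long transcripts (0.54, adjusted p = 0.137). The remaining core genes Fanca, Fancc and Fancm, of which Fancm encodes the translocase that anchors the complex to DNA, were not called, with log2 fold changes from -0.48 to -0.12 over these comparisons.

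Fancd2 and Fanci encode the pair of proteins that the core complex ubiquitinates. Fanci (chr7:79391929-79450264) measured 29.4, 27.6, 30.4 and 27.1 CPM with PBS and 17.5, 9.40, 14.5, 24.4 and 15.5 CPM with ICB, without overlap. In 5-FU tumors it measured 21.6, 23.5, 12.6, 21.9 and 18.1 CPM, and after 5-FU+ICB 13.4, 29.1, 16.8, 15.2 and 11.5 CPM, where tumor 2 stood among the PBS tumors. Fanci fell after ICB (log2 fold change -0.79 ± 0.26, adjusted p = 0.0198) and after 5-FU+ICB (-0.72 ± 0.26, adjusted p = 0.0296), and for 5-FU alone the value was -0.54 ± 0.26 (adjusted p = 0.120). The ICB call was lost without ICB tumor 2, and the 5-FU+ICB call held in 3 of the 9 fits that left out a tumor. Without the 4 tumors low in long transcripts both were lost, at -0.74 (adjusted p = 0.130) and -0.66 (adjusted p = 0.161). Fancd2 (chr6:113531682-113597017) measured 20.5, 14.7, 27.1 and 24.6 CPM with PBS and 14.5, 8.94, 9.12, 24.2 and 12 CPM with ICB, so that the groups overlapped. Its log2 fold changes of -0.62 ± 0.32 (ICB, adjusted p = 0.128), -0.20 ± 0.32 (5-FU, adjusted p = 0.668) and -0.42 ± 0.32 (5-FU+ICB, adjusted p = 0.300) did not pass the test. With the index of long transcripts as a covariate, Fancd2 and Fanci were called lower after ICB and after 5-FU+ICB. In those fits 34.5% and 37.9% of all genes were called. Exons of Polg on the opposite strand cover 16.0% of those of Fanci.

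**Figure D2:**
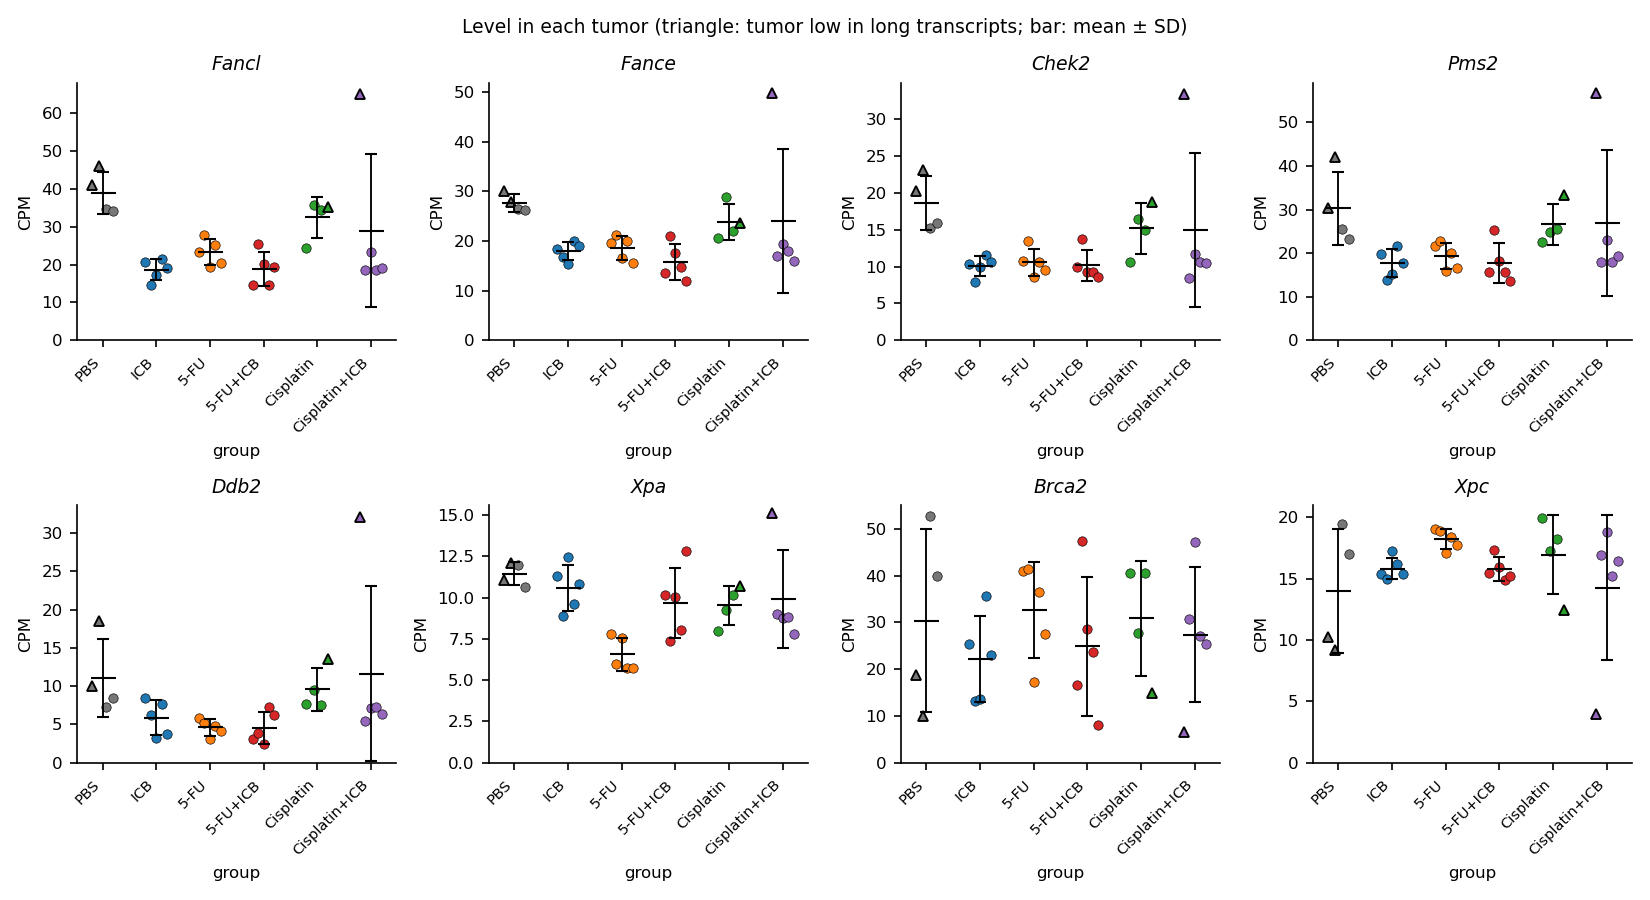
CPM (y axis, from 0) of 8 members in each of the 28 tumors (points) by treatment group (x axis), with the group mean and SD (bars) and triangles for the 4 tumors low in long transcripts. Fancl, Fance and Chek2 sit lower in every ICB, 5-FU and 5-FU+ICB tumor than in any PBS tumor, Xpa is low in the 5-FU group (5.71 to 7.78 CPM), Brca2 spreads from 9.97 to 52.7 CPM within PBS, and cisplatin+ICB tumor 1 is the high point for Fancl at 65.0 CPM.

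Among the 10 recombination genes, Rad52, Xrcc2, Rad54l, Rad51c and Palb2 were called in at least 1 of these comparisons. Rad52 (chr6:119902698-119922828), whose product anneals single strands, measured 18.9, 22.7, 15.5 and 17.4 CPM with PBS, 15.6, 12.8, 9.51, 17.6 and 11.7 CPM with ICB, 12.1, 12.5, 7.30, 15.6 and 11.1 CPM with 5-FU, and 10.1, 12.2, 7.78, 13.1 and 9.0 CPM with 5-FU+ICB. The 5-FU+ICB tumors lay below all PBS tumors, and 1 of the 5-FU tumors reached the lowest PBS tumor. Rad52 fell after 5-FU (log2 fold change -0.67 ± 0.23, adjusted p = 0.0372) and after 5-FU+ICB (-0.82 ± 0.23, adjusted p = 0.00844), and the value for ICB was -0.46 ± 0.23 (adjusted p = 0.112). The 5-FU call held in 4 of the 9 fits without 1 tumor and the 5-FU+ICB call in 9 of 9, and both were lost without the 4 tumors low in long transcripts, at -0.42 (adjusted p = 0.442) and -0.57 (adjusted p = 0.143).

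Xrcc2 (chr5:25689812-25705825), which acts in strand pairing, measured 18.5, 19.6, 16.7 and 15.6 CPM with PBS, 13.8, 7.94, 8.41, 14.1 and 11.6 CPM with ICB, and 9.60, 14.5, 13.1, 10.2 and 9.80 CPM with 5-FU+ICB. It fell in both, by 0.64 ± 0.19 (adjusted p = 0.0115) and by 0.61 ± 0.19 (adjusted p = 0.0143) on the log2 scale, and the ICB call was lost without ICB tumor 2. Both calls were lost without the 4 tumors low in long transcripts (-0.45 with adjusted p = 0.168 and -0.42 with adjusted p = 0.187) and with the index of long transcripts as a covariate. In the 5-FU tumors it ranged from 10.5 to 14.6 CPM, also below every PBS tumor, with a log2 fold change of -0.48 ± 0.19 (adjusted p = 0.0627). Rad54l, a motor protein of strand invasion, fell after ICB (-0.62 ± 0.22, adjusted p = 0.0290) and 5-FU+ICB (-0.65 ± 0.22, adjusted p = 0.0211), calls that held in 4 and 9 of the 9 fits without 1 tumor. Rad51c, of the same step, fell after ICB (-0.72 ± 0.22, adjusted p = 0.0158). Palb2, which bridges BRCA1 and BRCA2, fell after 5-FU+ICB (-0.93 ± 0.36, adjusted p = 0.0418), a call that held in 1 of the 9 fits without 1 tumor. Without the 4 tumors low in long transcripts these calls were lost, at -0.64 (adjusted p = 0.122) and -0.67 (adjusted p = 0.105) for Rad54l, -0.77 (adjusted p = 0.0760) for Rad51c and -0.94 (adjusted p = 0.153) for Palb2.

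Brca1 and Brca2, the breast cancer susceptibility genes of the pathway, were not called in any comparison without a covariate, and their spread within PBS was wide. With the index of long transcripts as a covariate, Brca1, Brca2 and Bard1 were called lower after ICB and after 5-FU+ICB. In those fits 34.5% and 37.9% of all genes were called. Brca2 (chr5:150522630-150570329) measured 18.7, 9.97, 52.7 and 40.0 CPM with PBS, 25.5, 13.3, 13.5, 35.5 and 23.1 CPM with ICB, 40.9, 41.4, 17.2, 36.4 and 27.5 CPM with 5-FU, and 16.5, 47.5, 28.6, 23.6 and 8.10 CPM with 5-FU+ICB. The PBS tumors with low values were tumors 1 and 2, which were low in long transcripts, and the longest transcript of Brca2 has 10724 bases. Its log2 fold changes were -0.39 ± 0.46 (ICB, adjusted p = 0.501), 0.15 ± 0.46 (5-FU, adjusted p = 0.825) and -0.24 ± 0.46 (5-FU+ICB, adjusted p = 0.692). Brca1 (chr11:101488764-101551955) measured 31.5, 26.5, 58.8 and 48.0 CPM with PBS and 32.5, 18.2, 19.1, 48.7 and 25.6 CPM with ICB, with log2 fold changes of -0.47 ± 0.33, -0.09 ± 0.33 and -0.40 ± 0.33 for ICB, 5-FU and 5-FU+ICB. Bard1, the partner of BRCA1, gave -0.76 ± 0.34 for ICB (adjusted p = 0.0828) and -0.84 ± 0.34 for 5-FU+ICB (adjusted p = 0.0535). The helicase gene Brip1 and the strand pairing gene Xrcc3 were not called either, and among the recombination genes only Xrcc3 in all 3 comparisons and Brca2 after 5-FU had a log2 fold change above 0.

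Of the checkpoint kinases, Chek2 (chr5:110839979-110874145) encodes the effector of ATM and Chek1 (chr9:36708482-36727065) that of ATR. Windows of up to 250 bases before the RefSeq start (GRCm38.p6) were available for 31 of the 37 members. They were searched on both strands for the E2F octamers TTTCCCGC, TTTCGCGC, TTTGCCGC and TTTGGCGC, which bind the factors that drive S phase genes. An octamer was found in 4 of the 31 members (Bard1, Brca2, Chek2 and Fancg), or 12.9%, against 2.16% of 27025 genes. These 27025 were all genes with a window, whether or not they were tested here. The window of Chek2, which was called in all 3 comparisons with no covariate, is printed beside that of Brca2, which was called in none of them, since both hold the same octamer. It reads TTTCCCGC on the strand opposite to the gene and is shown in capitals, here as GCGGGAAA, with both windows on the plus strand and 5′ to 3′. The Brca2 window is chr5:150522371-150522620 and the Chek2 window chr5:110839733-110839978.
Brca2: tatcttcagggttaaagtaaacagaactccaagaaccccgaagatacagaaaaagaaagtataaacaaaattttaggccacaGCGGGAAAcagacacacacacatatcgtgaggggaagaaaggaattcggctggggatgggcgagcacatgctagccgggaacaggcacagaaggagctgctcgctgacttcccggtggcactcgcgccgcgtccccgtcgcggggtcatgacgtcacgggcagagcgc
Chek2: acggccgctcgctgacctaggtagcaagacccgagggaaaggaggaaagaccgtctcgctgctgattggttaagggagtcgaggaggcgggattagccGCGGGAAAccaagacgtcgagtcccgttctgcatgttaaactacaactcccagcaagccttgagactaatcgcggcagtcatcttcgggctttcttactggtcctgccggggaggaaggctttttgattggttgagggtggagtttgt
Counted from the RefSeq start, the octamer lies 168 to 161 bases before that of Brca2 and 152 to 145 bases before that of Chek2. The Chek2 window was cut to the 246 bases that precede the annotated gene, so it ends short of that start. Among the matched members, 1 of the 14 that were called lower in some comparison held an E2F octamer and 3 of the 17 others did. The cell cycle element CHR (TTTGAA or TTCGAA) was in 9.68% of the members against 19.6% of genes, CCAAT in 51.6% against 37.5%, and the GC box GGGCGG in 67.7% against 35.4%. These matches describe the sequence and no binding was measured.

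Chek2 measured 20.2, 23, 15.2 and 15.9 CPM with PBS, 10.4, 7.97, 9.91, 11.6 and 10.6 CPM with ICB, 10.7, 13.4, 8.60, 10.7 and 9.57 CPM with 5-FU, and 9.94, 13.7, 9.28, 9.28 and 8.55 CPM with 5-FU+ICB. All 15 treated tumors lay below the lowest PBS tumor. Chek2 fell by 0.87 ± 0.18 (adjusted p = 0.00168), 0.82 ± 0.18 (adjusted p = 0.00731) and 0.87 ± 0.18 (adjusted p = 0.00186) on the log2 scale, and these calls held in every fit that left out 1 tumor. Without the 4 tumors low in long transcripts the log2 fold changes were -0.54 (adjusted p = 0.0676), -0.48 (adjusted p = 0.258) and -0.54 (adjusted p = 0.0718), so none was called by edgeR. Limma without these tumors called Chek2 lower after ICB and 5-FU+ICB, among 22.1% and 23.4% of all genes.

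Chek1 measured 29.7, 32.7, 29.5 and 23.7 CPM with PBS, 17.2, 7.40, 9.16, 17.7 and 13.4 CPM with ICB, 23.7, 28.5, 14.1, 19.4 and 15.6 CPM with 5-FU, and 11.5, 28.2, 17.0, 12.3 and 8.60 CPM with 5-FU+ICB. The ICB tumors lay apart from PBS, and 5-FU+ICB tumor 2 lay among the PBS tumors. Chek1 fell after ICB (log2 fold change -1.14 ± 0.31, adjusted p = 0.00797), the member with the largest decrease there, and after 5-FU+ICB (-0.89 ± 0.31, adjusted p = 0.0264), and the value for 5-FU was -0.51 ± 0.31 (adjusted p = 0.219). The ICB call held in 9 of the 9 fits without 1 tumor and the 5-FU+ICB call in 4 of 9, and both were lost without the 4 tumors low in long transcripts, at -0.95 (adjusted p = 0.105) and -0.70 (adjusted p = 0.204). The upstream kinase gene Atm had log2 fold changes of 0.50 ± 0.31, 0.52 ± 0.31 and 0.57 ± 0.31 (adjusted p = 0.191, 0.204 and 0.133), and Atr of 0.06 ± 0.22, -0.02 ± 0.22 and -0.19 ± 0.22, none of which passed the test. With the index of long transcripts as a covariate, Atr was called lower after 5-FU, as the only member, and after 5-FU+ICB. In those fits 2.68% and 37.9% of all genes were called.

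In nucleotide excision repair, Xpa was low where 5-FU was given without ICB. Xpa (chr4:46155347-46196311) measured 11.1, 12.1, 12 and 10.6 CPM with PBS, 11.3, 8.91, 12.4, 9.60 and 10.8 CPM with ICB, 7.78, 6.00, 7.53, 5.71 and 5.74 CPM with 5-FU, and 10.1, 7.35, 10.0, 8.04 and 12.8 CPM with 5-FU+ICB. The 5-FU tumors lay below every PBS and ICB tumor, and the 5-FU+ICB tumors overlapped with both PBS and 5-FU. Xpa fell after 5-FU (log2 fold change -0.80 ± 0.17, adjusted p = 0.00700), the smallest adjusted p of any member in that comparison, and the call held whichever tumor was left out. The values for ICB (-0.09 ± 0.17, adjusted p = 0.698) and 5-FU+ICB (-0.22 ± 0.17, adjusted p = 0.308) did not pass. Between 5-FU+ICB and 5-FU the log2 difference of Xpa was 0.58 with adjusted p = 0.151 by edgeR, and it was the 1 member that DESeq2 called there, among 1.52% of all genes it fitted. Without the tumors low in long transcripts the 5-FU value was -0.71 with adjusted p = 0.155.

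Ddb2 (chr2:91211572-91236982), which encodes a damage sensor and whose human homolog is a p53 target, measured 10.1, 18.5, 7.26 and 8.44 CPM with PBS, 8.38, 6.28, 3.24, 7.68 and 3.78 CPM with ICB, 5.81, 5.18, 3.07, 4.80 and 4.12 CPM with 5-FU, and 3.05, 3.91, 2.43, 7.21 and 6.20 CPM with 5-FU+ICB. The 5-FU and 5-FU+ICB tumors lay below all PBS tumors, and PBS tumor 2 was the highest of that group. Ddb2 fell after 5-FU (-1.29 ± 0.38, adjusted p = 0.0224) and 5-FU+ICB (-1.27 ± 0.38, adjusted p = 0.0131), and the value for ICB was -0.91 ± 0.38 (adjusted p = 0.0623). The 5-FU call was lost without PBS tumor 1 or 2 or 5-FU tumor 3 or 5, and the 5-FU+ICB call without PBS tumor 2. Without all 4 tumors low in long transcripts the values were -0.70 for both (adjusted p = 0.418 and 0.243). Exons of Acp2 on the opposite strand cover 23.8% of those of Ddb2.

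Xpc (chr6:91489305-91515888), whose protein starts global repair, measured 10.2, 9.19, 19.5 and 17.0 CPM with PBS and 19.0, 18.9, 17.1, 18.4 and 17.7 CPM with 5-FU, with a log2 fold change of 0.41 ± 0.15 (adjusted p = 0.0559) that did not pass. The nuclease gene Ercc1 (chr7:19344778-19356524) measured 158, 137, 233 and 158 CPM with PBS, 96.8, 38.7, 56.5, 144 and 83.3 CPM with ICB, and 62.0, 230.2, 109, 61.0 and 13.7 CPM with 5-FU+ICB. Its log2 fold changes of -1.0 ± 0.53 (adjusted p = 0.135) and -0.84 ± 0.53 (adjusted p = 0.200) carried the largest errors of any member. Ercc4 (chr16:13109684-13150617), the catalytic partner of ERCC1, measured 14.2, 9.93, 15.0 and 13.1 CPM with PBS and 14.3, 17.5, 17.1, 14.9 and 16.5 CPM with ICB, with overlap. It gave 0.33 ± 0.13 for ICB with an adjusted p of 0.0418, and Ercc3, a helicase of TFIIH, gave -0.34 ± 0.11 for 5-FU (adjusted p = 0.0274) and -0.32 ± 0.11 for 5-FU+ICB (adjusted p = 0.0197), all within the fold limit of the call. Ercc2, the other TFIIH helicase, and the nuclease gene Ercc5 were not called.

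Translesion polymerases were called in single comparisons. Polh (chr17:46171355-46202645), which encodes polymerase eta, measured 42.0, 44.1, 37.5 and 40.1 CPM with PBS and 29.7, 20.6, 28.4, 31.2 and 30.1 CPM with ICB. The groups were apart, and Polh fell by 0.53 ± 0.14 on the log2 scale (adjusted p = 0.00766), close to the fold limit, and the call was lost without PBS tumor 2 or ICB tumor 2 and in 7 of 9 other settings, among them DESeq2, DESeq2's size factors in edgeR, the replicate block and the fit without the 4 tumors low in long transcripts (-0.39, adjusted p = 0.126). Rev1 (chr1:38052786-38129801), the scaffold for the other polymerases, measured 35.0, 39.9, 39.5 and 35.8 CPM with PBS and 13.3, 33.2, 17.8, 21.3 and 7.95 CPM with 5-FU+ICB, again without overlap. Rev1 fell by 0.99 ± 0.32 (adjusted p = 0.0181), a call that was lost in a model of these 2 groups alone and without the 4 tumors low in long transcripts (-0.93, adjusted p = 0.121), and the values for ICB and 5-FU were -0.78 ± 0.32 (adjusted p = 0.0565) and -0.52 ± 0.32 (adjusted p = 0.224). Exons of Eif5b on the opposite strand cover 26.6% of those of Rev1. Rev3l, the catalytic subunit of polymerase zeta, gave -0.28 ± 0.34, 0.56 ± 0.34 and -0.22 ± 0.34 for ICB, 5-FU and 5-FU+ICB and was not called. With the index of long transcripts as a covariate, Rev1 and Rev3l were called lower after ICB and after 5-FU+ICB. In those fits 34.5% and 37.9% of all genes were called.

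Of the mismatch repair genes, Pms2 (chr5:143909964-143933968), which encodes the nicking subunit of MutL alpha, measured 30.3, 42.1, 25.6 and 23.4 CPM with PBS, 19.8, 13.9, 15.3, 21.7 and 17.8 CPM with ICB, 21.6, 22.9, 15.9, 20.0 and 16.7 CPM with 5-FU, and 15.7, 25.3, 18.1, 15.8 and 13.7 CPM with 5-FU+ICB. The ICB and 5-FU tumors lay below the PBS tumors, and 5-FU+ICB tumor 2 lay within them. Pms2 fell by 0.77 ± 0.21 (adjusted p = 0.00732), 0.65 ± 0.21 (adjusted p = 0.0289) and 0.77 ± 0.21 (adjusted p = 0.00681). The 5-FU call was lost without PBS tumor 1 or 2 or 5-FU tumor 3 or 5, and without the tumors low in long transcripts the values were -0.38 (adjusted p = 0.209), -0.26 (adjusted p = 0.536) and -0.39 (adjusted p = 0.193). Msh6 (chr17:87975062-87990892), of the mismatch sensor MutS alpha, measured 72.2, 65.0, 105 and 84.4 CPM with PBS and 56.9, 34.6, 44.3, 78.0 and 56.6 CPM with ICB, and its -0.56 ± 0.23 (adjusted p = 0.0596) did not pass.

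Ung (chr5:114130386-114139323), the glycosylase that removes uracil from DNA, was called after ICB and not after 5-FU. It measured 15.6, 21.2, 20.6 and 16.8 CPM with PBS, 8.96, 7.31, 9.79, 12.6 and 12.5 CPM with ICB, 18.1, 20.8, 15.5, 15.1 and 13.0 CPM with 5-FU, and 11.4, 21.7, 18.2, 10.1 and 13.0 CPM with 5-FU+ICB. The ICB tumors lay below all PBS tumors, whereas both 5-FU groups overlapped with PBS. Ung fell after ICB (-0.84 ± 0.21, adjusted p = 0.00541), a call that was lost without the 4 tumors low in long transcripts (-0.79, adjusted p = 0.0577), and the values were -0.16 ± 0.21 (adjusted p = 0.588) for 5-FU and -0.31 ± 0.21 (adjusted p = 0.248) for 5-FU+ICB. Directly between 5-FU+ICB and ICB the log2 difference of 0.53 did not pass (adjusted p = 0.328). Parp1 (chr1:180568924-180601254), a sensor of strand breaks, measured 143, 106, 187 and 167 CPM with PBS and 104, 90.0, 112, 124 and 117 CPM with ICB, a log2 fold change of -0.42 ± 0.17 (adjusted p = 0.0578).

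Cisplatin, the agent whose lesions several of these pathways repair, was compared with PBS in the same way. EdgeR called 0 of the 37 members and 0% of all 17819 genes, 0 members and 1.78% of all genes had an unadjusted p under 0.05, and DESeq2 called 0 members. The median log2 fold change of the members was -0.07 against -0.01 over all genes, with 13 members above 0 and 24 below. The groups did not overlap for 1 member, Ung, which was lower (1.91% of all genes). Fancl measured 24.4, 35.7, 34.4 and 35.1 CPM (log2 fold change -0.26 ± 0.33), Chek2 10.6, 16.5, 15.0 and 18.8 CPM (-0.29 ± 0.35), Xpa 8.0, 9.26, 10.1 and 10.7 CPM (-0.26 ± 0.20), and Ddb2 7.66, 9.49, 7.58 and 13.6 CPM (-0.21 ± 0.51). In simulated data with the group sizes and depth of this comparison, 9.09% of genes changed 2-fold were called, as were 21.2% for 5-FU against PBS.

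With cisplatin+ICB against PBS, edgeR again called 0 members, where 4.70% of all genes were called higher and 1.40% lower. There were 9 members (24.3%) with an unadjusted p under 0.05, against 23.6% of all genes, DESeq2 called 0 members, and the smallest adjusted p was 0.107, for Parp1 (log2 fold change -0.57 ± 0.21). The median of the members was -0.30 against 0.03 over all genes, 32 members were below 0, and 3 members (Fanci, Rad51c and Ercc3) were lower without overlap, against 4.69% of all genes. Tumor 1 of this group, the lowest in the index of long transcripts, set much of the spread. Fancl measured 65.0, 18.6, 23.4, 18.6 and 19.2 CPM, Chek2 33.4, 8.45, 11.7, 10.6 and 10.5 CPM, and Pms2 56.7, 18.0, 22.9, 18.0 and 19.3 CPM, so that tumor 1 was above every PBS tumor and the other 4 were below every PBS tumor for each of the 3 genes. Without tumor 1, 9 members were called, Xrcc3 higher and Fancc, Fance, Fancl, Xrcc2, Chek1, Chek2, Pms2 and Ung lower, while 35.3% of all genes were called. In that fit the log2 fold change was -0.90 for Fancl (adjusted p = 0.00172), -0.79 for Chek2 (adjusted p = 0.00756) and 0.82 for Xrcc3 (adjusted p = 0.0303). Without all 4 tumors low in long transcripts, 2 members were called, Fancl and Parp1, among 9.40% of all genes.

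The treated groups were then compared with each other, to ask whether chemotherapy altered the members on top of ICB, or ICB on top of chemotherapy. EdgeR called 0 members in each of these comparisons. For 5-FU+ICB against ICB the median was 0.00, 1 member (Ung) had an unadjusted p under 0.05 (10.9% of all genes) and 0.229% of all genes were called. For 5-FU+ICB against 5-FU the median was -0.20, 3 members (Xpa, Rev3l and Ercc4) had an unadjusted p under 0.05 (16.6% of all genes) and 0.0112% of genes were called. For cisplatin+ICB, 0% of genes were called against either ICB or cisplatin alone, and 5 and 1 members had an unadjusted p under 0.05 (15.9% and 14.2% of all genes). The 1 member was Rad51c, at -0.47 against cisplatin (adjusted p = 0.241), which was lower without overlap (2.17% of all genes). DESeq2 called Xpa in 5-FU+ICB against 5-FU and 0 members in the other 3.

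The test of the difference between the 5-FU effects with and without ICB called 0 members and 0.0893% of all genes. Of the members, 7 (18.9%, against 23.9% of all genes) had an unadjusted p under 0.05, led by Chek2 (0.82, adjusted p = 0.0761) and Fancl (0.76, adjusted p = 0.0795), and DESeq2 called these 2, among 4.34% of all genes it fitted. A positive value here means that the decrease after both treatments was smaller than the sum of the separate decreases, as the levels of Chek2 and Fancl above show. These decreases are measured from the PBS tumors, of which tumors 1 and 2 were low in long transcripts. Over all genes tested, the median of this test was -0.52 for the 905 long genes and 0.36 for the 3352 short genes. Among the members it was 0.10 for the 11 of 5000 bases or more and 0.39 for the 26 shorter ones. The test was not refitted without these PBS tumors together, so the part of transcript length in its values was not tested. For cisplatin the same test called 0 members and 0% of genes, with 1 member, Ung (0.84, adjusted p = 0.564), and 7.14% of all genes at an unadjusted p under 0.05.

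Between the chemotherapies, edgeR called 0 members lower or higher with 5-FU than with cisplatin, among 0.362% of all genes, and the median member stood at -0.19. Rad52 came nearest, with -0.75 ± 0.22 (adjusted p = 0.106). It measured 18.1, 20.3, 18.6 and 22.2 CPM with cisplatin, above every 5-FU tumor, and was among 4 members lower in 5-FU without overlap (7.22% of all genes). With ICB in both arms, Rad52 had a lower level after 5-FU+ICB than after cisplatin+ICB (log2 difference -0.78 ± 0.21, adjusted p = 0.0649), which did not pass, again without overlap (0.923% of all genes), the cisplatin+ICB tumors measuring 25.1, 18.9, 17.4, 15.1 and 13.4 CPM. EdgeR called 0 members in that comparison and 0.297% of all genes, 6 members had an unadjusted p under 0.05 (25.7% of all genes), and DESeq2 called Rad52 and Ddb2, among 4.42% of all genes. For 5-FU against cisplatin, 4 members had an unadjusted p under 0.05 (15.5% of all genes) and DESeq2 called Rad52, among 1.81% of all genes.

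The mean log2 CPM over the 37 members summarises their level in each tumor, and since the members were chosen with results known it was given no test. In PBS tumors it was 4.54, 4.42, 4.81 and 4.67, in ICB tumors 4.29, 3.84, 3.91, 4.55 and 4.14, in 5-FU tumors 4.51, 4.6, 3.89, 4.46 and 4.19, and in 5-FU+ICB tumors 3.93, 4.67, 4.14, 4.11 and 3.62. With cisplatin it was 4.53, 4.59, 4.72 and 4.41, and with cisplatin+ICB 4.11, 4.28, 4.58, 4.24 and 4.23. The lowest PBS tumor was undercut by 4 of 5 ICB, 2 of 5 5-FU, 4 of 5 5-FU+ICB, 1 of 4 cisplatin and 4 of 5 cisplatin+ICB tumors. Group means were 4.61 ± 0.17 (SD, n = 4) for PBS, 4.15 ± 0.29 (n = 5) for ICB, 4.33 ± 0.29 (n = 5) for 5-FU, 4.09 ± 0.38 (n = 5) for 5-FU+ICB, 4.56 ± 0.13 (n = 4) for cisplatin and 4.29 ± 0.17 (n = 5) for cisplatin+ICB. The difference from PBS was thus -0.46 for ICB, -0.28 for 5-FU, -0.52 for 5-FU+ICB, -0.05 for cisplatin and -0.32 for cisplatin+ICB. Without the tumors low in long transcripts these differences were -0.59, -0.41, -0.65, -0.13 and -0.41. With 1 tumor left out at a time they ranged from -0.57 to -0.39 for ICB, -0.35 to -0.17 for 5-FU (-0.17 without its tumor 3), -0.66 to -0.40 for 5-FU+ICB, -0.11 to 0.02 for cisplatin (above 0 without PBS tumor 3) and -0.39 to -0.25 for cisplatin+ICB.

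The range of this mean within the ICB, 5-FU and 5-FU+ICB groups was wider than any difference between group means, and other measures moved with it. Within 5-FU+ICB, tumor 2 had the highest mean (4.67) and the lowest Ptprc (105 CPM), and tumor 5 the lowest mean (3.62) and the highest Ptprc (722.5 CPM). In the 5-FU group, tumor 3 had the lowest mean (3.89), the highest Ptprc (331 CPM) and the lowest summed mesothelial markers (46.8 CPM). Tumors 2 and 3 of the ICB group, with means of 3.84 and 3.91, had mesothelial sums of 54.6 and 59.9 CPM, against 218 CPM in tumor 4 with a mean of 4.55. The mesothelial sum did not follow the mean in all groups. In 5-FU+ICB, tumor 5 had a sum of 111 CPM, above the 37.8, 69.6 and 60.8 CPM of tumors 1, 3 and 4, nearly all of it from keratins since its Msln was at 0.50 CPM, and in cisplatin+ICB, tumor 1 had the lowest mean (4.11) and the highest sum (665 CPM), with the lowest Ptprc (118 CPM) as well. The part of tumor cell content in the level of the members was not tested.

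**Figure D3:**
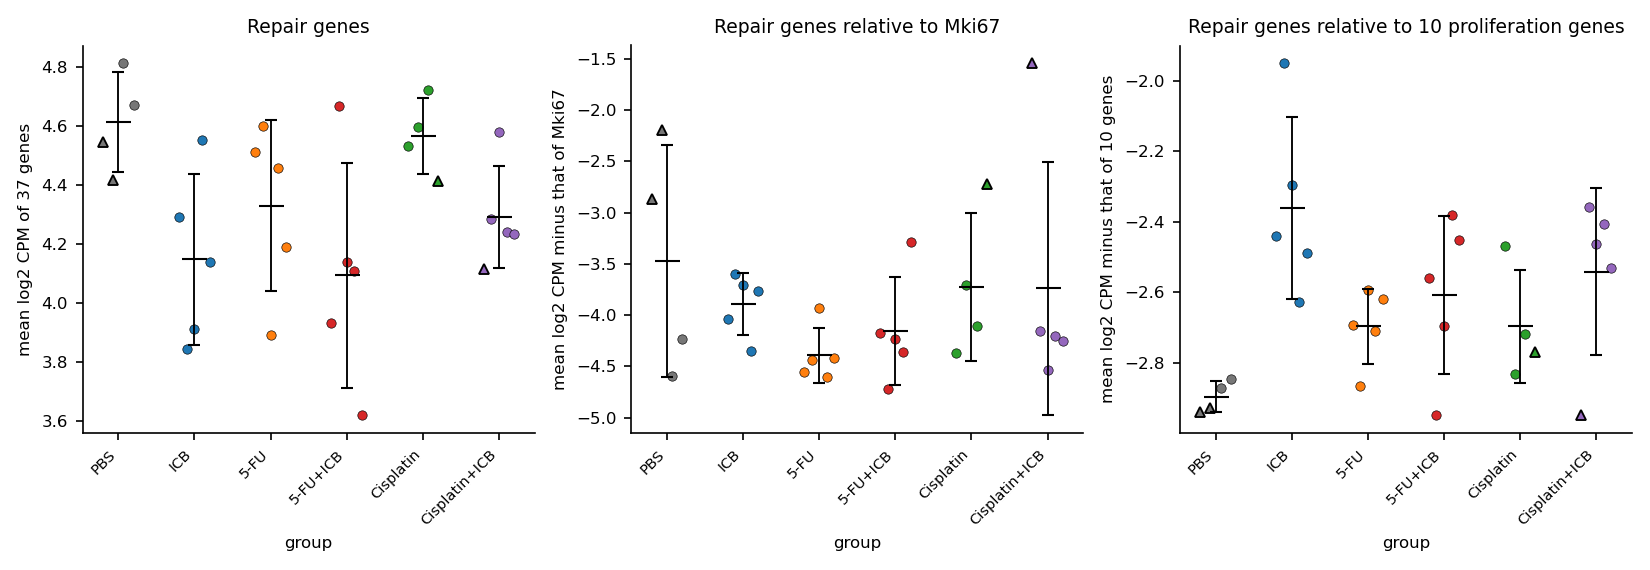
Per-tumor mean log2 CPM of the 37 members, the same minus the log2 CPM of Mki67, and the same minus the mean log2 CPM of 10 proliferation genes (y axes, left to right), by treatment group (x axis), with the group mean and SD (bars) and triangles for the 4 tumors low in long transcripts. The mean of the members averages 4.15 with ICB and 4.09 with 5-FU+ICB against 4.61 with PBS, the Mki67-relative value spreads from -4.59 to -2.20 within PBS, and relative to the 10 genes the PBS tumors lie within -2.94 and -2.85.

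The members were next set against Mki67 (chr7:135689784-135716361), to ask how far they follow proliferation. Mki67 measured 170, 97.9, 678 and 480 CPM with PBS, 321, 174, 196, 478 and 239 CPM with ICB, 536, 527, 226, 533 and 389 CPM with 5-FU, 275, 668, 331, 355 and 120 CPM with 5-FU+ICB, 479, 315, 453 and 140 CPM with cisplatin, and 50.3, 347, 554, 348 and 358 CPM with cisplatin+ICB. The 4 tumors low in long transcripts held the lowest Mki67 value of their group or, in PBS, the lowest pair, and the longest transcript of Mki67 has 10061 bases. The member mean minus log2 CPM of Mki67 was -3.47 ± 1.13 (SD, n = 4) with PBS, -3.89 ± 0.30 (n = 5) with ICB, -4.39 ± 0.27 (n = 5) with 5-FU, -4.15 ± 0.53 (n = 5) with 5-FU+ICB, -3.73 ± 0.72 (n = 4) with cisplatin and -3.74 ± 1.24 (n = 5) with cisplatin+ICB. The difference from PBS was -0.42 for ICB, -0.92 for 5-FU, -0.68 for 5-FU+ICB, -0.25 for cisplatin and -0.27 for cisplatin+ICB. Without the tumors low in long transcripts the same differences were 0.52, 0.025, 0.26, 0.35 and 0.13, opposite in sign for all 5. With 1 tumor left out at a time they ranged from -0.79 to 0.0064 for ICB, -1.29 to -0.49 for 5-FU, -1.06 to -0.26 for 5-FU+ICB, -0.63 to 0.17 for cisplatin and -0.82 (without its tumor 1) to 0.16 for cisplatin+ICB. The highest value of each of these 5 ranges came without PBS tumor 2.

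Gene by gene relative to Mki67, limma called 0 of the 37 members in every comparison, where 0.805% of all 18520 genes were called higher and 0.00540% lower after ICB, 0% and 0.00540% after 5-FU, and 0.119% and 0.0270% after 5-FU+ICB, with 0% in either direction in the other comparisons. At an unadjusted p under 0.05 there was 1 member for ICB (Ercc1), 3 for 5-FU (Fanci, Palb2 and Bard1), 4 for 5-FU+ICB (Palb2, Bard1, Ercc1 and Rev1) and 0 for cisplatin and cisplatin+ICB, against 11.5%, 5.63%, 13.8%, 0.151% and 4.01% of all genes. These ratios hold the error of Mki67 in every gene at once. Subtracting Mki67 lowered the spread within groups for 5 of 37 members (Fancm, Brca2, Atm, Ercc1 and Rev3l), or 13.5%, against 10.0% of all genes, and the median SD of the members went from 0.41 to 0.81. A mean over 10 proliferation genes (Mki67, Top2a, Cdk1, Ccna2, Ccnb1, Bub1, Aurka, Plk1, Mcm2 and Pcna) was steadier. It stood at 7.51 ± 0.14 (SD, n = 4) with PBS, 6.51 ± 0.53 (n = 5) with ICB, 7.02 ± 0.38 (n = 5) with 5-FU and 6.70 ± 0.58 (n = 5) with 5-FU+ICB. Relative to it the member mean was -2.90 ± 0.04 with PBS, -2.36 ± 0.26 with ICB, -2.70 ± 0.11 with 5-FU, -2.61 ± 0.22 with 5-FU+ICB, -2.70 ± 0.16 with cisplatin and -2.54 ± 0.24 with cisplatin+ICB. The proliferation genes were thus further below their PBS level than the members were in each treated group.

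Transcript length was examined because PBS held 2 of the 4 tumors low in long transcripts. The index averaged -0.60 ± 0.86 (SD, n = 4) with PBS, 0.25 ± 0.09 (n = 5) with ICB, 0.37 ± 0.17 (n = 5) with 5-FU and 0.17 ± 0.33 (n = 5) with 5-FU+ICB. Across all genes tested, with no limit on their level, the 905 genes of 8000 bases or more had a median log2 fold change of 0.44 after ICB, 0.56 after 5-FU and 0.46 after 5-FU+ICB, and the 3352 genes of 1000 to 2000 bases of -0.27, -0.30 and -0.25. Of the long genes 3.98%, 1.33% and 3.43% were called lower, and of the short genes 29.5%, 22.9% and 27.4%. Among the members, the 11 with a longest transcript of 5000 bases or more had medians of -0.39, -0.09 and -0.40, and the 26 shorter ones of -0.58, -0.41 and -0.50. Of the members called in these comparisons, 1 was long in each (Pms2, 6157 bases), and Fancl, Fance and Chek2 have longest transcripts of 2724, 2193 and 2276 bases. Pearson's r between log2 length and fold change was 0.22, 0.56 and 0.30 over the 37 genes, which share the same libraries. Without the 4 tumors, edgeR called 1 member after ICB (Fancl), 0 after 5-FU and 2 after 5-FU+ICB (Fance and Fancl), among 11.6%, 0.370% and 9.45% of all genes. The medians of the members in these fits were -0.57, -0.36 and -0.57, further from 0 than with all tumors, with 2 PBS tumors left. Limma without these tumors and with no subtraction called 10, 1 and 12 members, all lower, among 22.1%, 0.993% and 23.4% of all genes. These included members whose calls edgeR lost. They were Fance, Rad51c, Rad54l, Chek1, Chek2 and Ung after ICB, Xpa after 5-FU, and Palb2, Rad54l, Chek2 and Rev1 after 5-FU+ICB. With the index as a covariate, 19, 1 and 20 members were called, among 34.5%, 2.68% and 37.9% of all genes, and of these members 9, 0 and 8 were among those called without it. Of the members not called without it, Fancd2, Fancm, Brca1, Brca2, Bard1, Ercc5, Rev3l, Msh6 and Parp1 were called lower with it after ICB and 5-FU+ICB. So were Rev1 after ICB, Atr after 5-FU and 5-FU+ICB, and Fanca and Ercc2 after 5-FU+ICB.

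**Figure D4:**
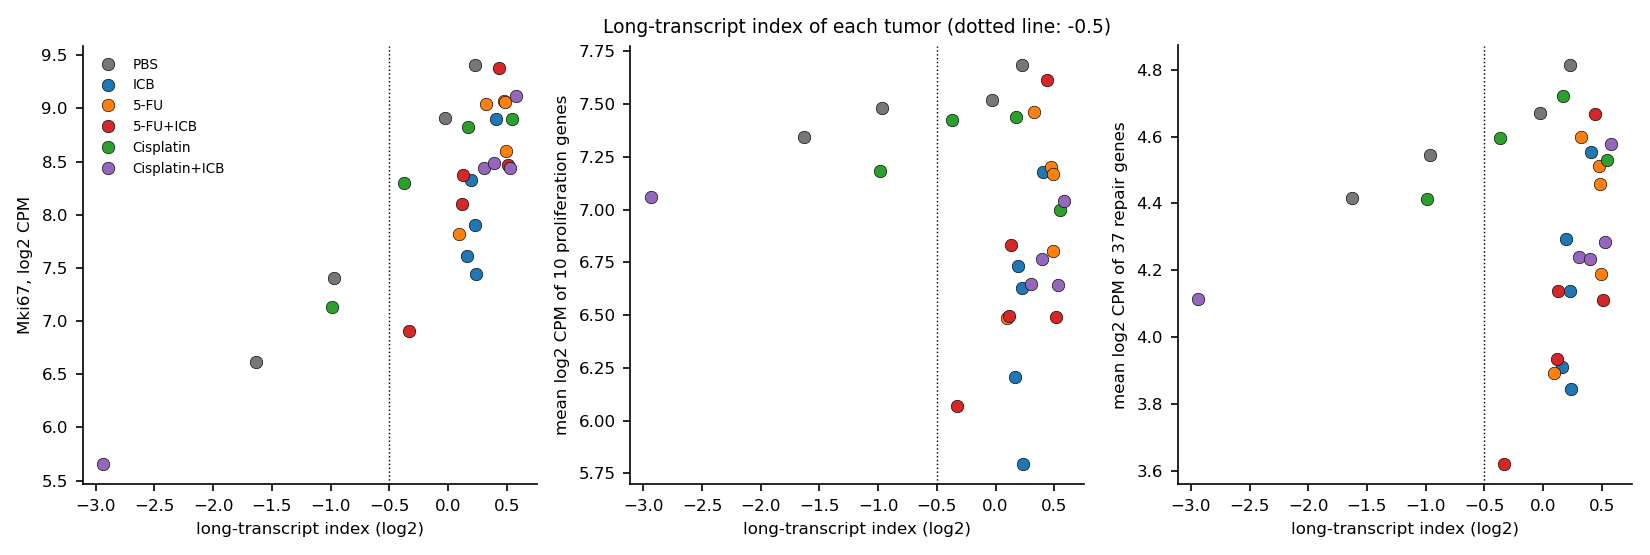
Log2 CPM of Mki67, mean log2 CPM of 10 proliferation genes and mean log2 CPM of the 37 members (y axes, left to right) against the index of long against short transcripts (x axes, log2) in each of the 28 tumors, colored by treatment group, with the limit of -0.5 dotted. PBS tumors 1 and 2, cisplatin tumor 4 and cisplatin+ICB tumor 1 lie left of it, at -2.94 to -0.97, and their Mki67 values are the lowest of their groups.

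**Figure D5:**
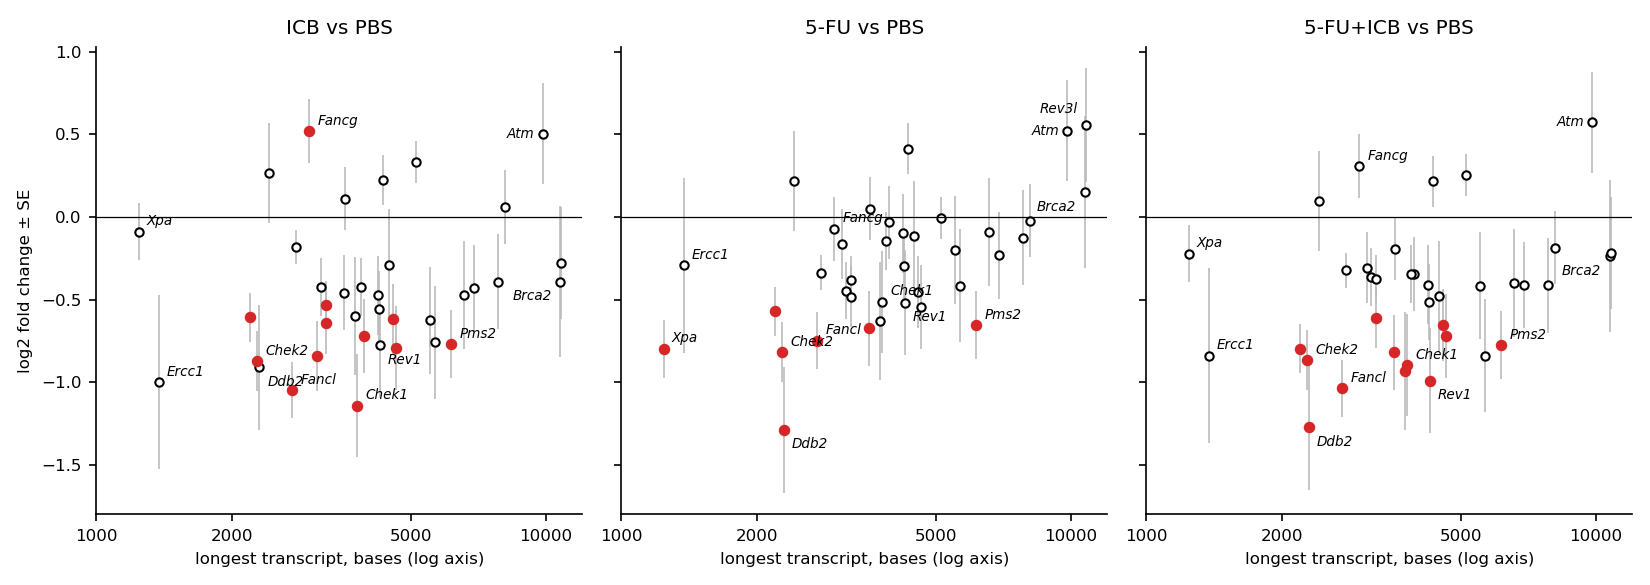
Log2 fold change against PBS with its SE (y axis) of each member by the length of its longest transcript (x axis, bases, log scale) after ICB, 5-FU and 5-FU+ICB, with called members filled in red and some members named. In each panel 1 called member, Pms2, has a transcript of 5000 bases or more, and the other called members are shorter.

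Other repair genes outside the 37 were counted for comparison. Of 74 such genes, among them Lig1 and Fen1, edgeR called 37 lower and 1 higher after ICB (median log2 fold change -0.58), 19 lower and 0 higher after 5-FU (-0.42), 35 lower and 1 higher after 5-FU+ICB (-0.51), 0 after cisplatin (-0.14) and 4 lower and 0 higher after cisplatin+ICB (-0.29). Of the 10 proliferation genes, 7, 4, 6, 0 and 1 were called lower in the same comparisons. Of 11 p53 targets, 5 were called lower after ICB, 3 after 5-FU and 5 after 5-FU+ICB, with 1 higher in the last, 0 were called after cisplatin and 2 were called higher after cisplatin+ICB. Of all genes tested, 18.8%, 13.0%, 18.7%, 0% and 1.40% were called lower in these comparisons (ICB, 5-FU, 5-FU+ICB, cisplatin and cisplatin+ICB against PBS) and 19.0%, 9.98%, 21.9%, 0% and 4.70% higher. The human homologs of the members Ddb2, Xpc and Polh are known p53 targets, and of these members none was called higher in any comparison with PBS.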

How the data were processed

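RNA from 28 tumors (100-base reads) was quantified against GRCm38 transcripts with kallisto 0.46.0 after bcl2fastq 2.20.0.422, per the submitters' processing notes. The authors summarised transcripts to genes and deposited estimated counts (expected counts, not normalized) in 2 matrices, with the 9 tumors of the PBS and ICB groups present in both. They state that transcripts with low counts were removed, with a limit not given in the sources used here, and they used DESeq2 themselves. Of the deposited values 23.7% were not whole, and counts were rounded. A set of 26 gene names had become dates (0.184% of counts) and was left out of the results.

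Genes were filtered by filterByExpr, scaled by TMM and compared with edgeR 4.0.16 (quasi-likelihood test, all groups of a matrix in 1 model, R 4.3.3) on 17916 genes (5-FU matrix), 17819 (cisplatin matrix) or 18521 (joined, for levels and for comparisons across matrices). Benjamini-Hochberg adjustment covered all genes tested. Calls needed an adjusted p under 0.05 and a log2 fold change over 0.5 in size, as in the study's methods, and errors of fold changes came from the F statistic. Values relative to Mki67 used limma 3.58.1 on log2 CPM (prior count 2), and DESeq2 1.42.0 was an alternative. Total counts per tumor ranged from 23541733 to 33950805, and the floor of 3 counts covers counting error only. Replicates were separate mice. Tested on simulated data for 5-FU against PBS (17554 genes), edgeR called 4.55%, 21.2% and 60.7% of genes changed 1.5-, 2- and 3-fold, and 2 of 17361 unchanged genes.

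The members and gene lists were chosen with earlier results of these data known. Values per tumor were given for the 2 members of each role called in most comparisons (ties by smallest adjusted p) and for 12 chosen for their role (Ercc1, Ercc4, Fancd2, Brca1, Brca2, Chek1, Ddb2, Xpc, Polh, Msh6, Ung and Parp1), 21 in all, in the groups a result concerns, and for Fancg, added after its values were seen. Alternatives were DESeq2, its size factors in edgeR, no filter or at least 10 counts in every tumor, other sets of groups in the model, the replicate number as a block, each tumor left out, the median over members, a prior count of 0.5 and other references for Mki67. The fits without the tumors low in long transcripts and with the long-transcript index as a covariate were chosen after seeing the data. Flow cytometry and survival were not analysed here.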

Additional observations from a re-analysis of the deposited data

Results flagged for a closer look

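A tumor far from the rest of its group was looked for in 144 sets of values (21 members, Mki67, the member mean and its Mki67-relative form, in 6 groups of 4 or 5 tumors, by Dixon's 95% limit), and 17 were found. The limit flags about 1 in 20 independent sets of normal values. These sets share the same tumors and are not independent, so that rate cannot be set against the count. Of these, 11 came from cisplatin+ICB tumor 1, the tumor lowest in long transcripts. It was high for Fancl (65.0 CPM, others 18.6 to 23.4), Fance (49.8 CPM, others 16.0 to 19.5), Ung (26.3 CPM, others 10.2 to 12.5), Chek2 (33.4 CPM, others 8.45 to 11.7), Chek1 (44.7 CPM, others 13.3 to 19.0), Pms2 (56.7 CPM, others 18.0 to 22.9), Ddb2 (32.0 CPM, others 5.45 to 7.27) and Xpa (15.1 CPM, others 7.81 to 9.02). The same tumor was low for Ercc4 (4.98 CPM, others 13.1 to 14.9) and Xpc (3.98 CPM, others 15.3 to 18.8), and its member mean minus Mki67 was -1.54 (others -4.54 to -4.16).

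Cisplatin tumor 1 was low for Fancl (24.4 CPM, others 34.4 to 35.7) and Polh (31.4 CPM, others 39.8 to 40.7). ICB tumor 2 was low for Polh (20.6 CPM, others 28.4 to 31.2). 5-FU+ICB tumor 2 was high for Chek2 (13.7 CPM, others 8.55 to 9.94) and Polh (41.5 CPM, others 27.1 to 31.0). In 5-FU tumor 3 the member mean minus Mki67 was -3.93 (others -4.60 to -4.42).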

How the results depend on the processing

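Over 558 refits of the 31 called fold changes of members, 428 kept the call, 130 lost it and 0 changed sign. Called members numbered 12 for ICB, 7 for 5-FU and 12 for 5-FU+ICB against PBS. They were 6, 3 and 7 with no filter on low counts (16.1%, 6.95% and 18.0% of all genes), 1, 0 and 2 without the 4 tumors low in long transcripts, and 19, 1 and 20 with the long-transcript index as a covariate. For 5-FU the joined model of all 6 groups gave 1 (Xpa, 4.45% of all genes), and for 5-FU+ICB a model of the 2 groups alone gave 7 (30.2%). Leaving out 1 tumor gave 7 (without ICB tumor 2, 30.5% of all genes) to 16 (39.8%), 3 (without PBS tumor 1, 10.5%) to 9, and 8 (30.6%) to 20 (without 5-FU+ICB tumor 2, 48.8%). Cisplatin+ICB against PBS gave 0 to 9, with 9 without its tumor 1, 2 without the 4 tumors and 7 with the covariate (35.3%, 9.40% and 19.0% of all genes), and against cisplatin 0 to 1, with 1 in each of those 3 fits (11.9%, 8.5% and 7.86%). 5-FU+ICB against 5-FU gave 0 to 2 (10.9% of all genes, without 5-FU+ICB tumor 2) and 1 by DESeq2 (1.52%), the 5-FU and ICB interaction 0 to 2 (9.27%, without PBS tumor 3) and 2 by DESeq2 (4.34%), 5-FU against cisplatin 1 by DESeq2 (1.81%) and 1 in the model of 2 groups (5.62%), and 5-FU+ICB against cisplatin+ICB 0 to 3 (11.6%, without 5-FU+ICB tumor 2), 2 by DESeq2 (4.42%) and 1 with the covariate (4.74%). The replicate numbers did not pair the tumors (correlations of deviations from -0.629 to 0.665, 15 of 48 over 0.1). With the replicate number as a block, 11, 7 and 11 members were called against PBS for ICB, 5-FU and 5-FU+ICB, among 33.7%, 18.6% and 35.8% of all genes, and 0 elsewhere. Relative to Mki67, 0 members became 12, 1 and 14 with no subtraction (28.2%, 3.8% and 32.0% of all genes), 11 (ICB, 50.9% of all genes called) and 4 (5-FU+ICB, 37.8%), all higher, with the proliferation mean as reference, and 2 (ICB, 13.0%) without the 4 tumors, and with no subtraction and without these tumors 10, 1, 12 and, for cisplatin+ICB, 1 (22.1%, 0.993%, 23.4% and 5.67%). The member mean minus Mki67 moved from -0.42, -0.92 and -0.68 to 0.54, 0.20 and 0.29 with the proliferation mean and to 0.52, 0.025 and 0.26 without the 4 tumors, and for 5-FU against cisplatin from -0.66 to 0.00091 with the proliferation mean. The causes were not tested. In the simulations of 5-FU and of cisplatin against PBS most changes of 2-fold were not called (21.2% and 9.09% were), and the other alternatives left the counts within 1.5 times.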
